A study of Takifugu obscurus with 9 samples.

Results

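The 165 genes described here are the cell cycle and DNA replication genes measured in kidneys of a migratory pufferfish, Takifugu obscurus. A member is a feature whose best protein match was in a fish and whose pathway annotation in the deposited table held the term "Cell cycle" or "DNA replication". Where several features shared a gene name, the feature with the highest mean over the 9 libraries stood for it. Of 46444 features in the table, 221 fish-matched features held either term, 192 of those had a name, and these carried the 165 names. There were 130 members with the cell cycle term, 42 with the DNA replication term and 7 with both.

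Kidney of fish 3 months old was sequenced after poly(I:C), an artificial RNA duplex that sets off antiviral responses in vertebrates. The 3 groups were labelled poly(I:C) 0 h, 12 h and 48 h, with 3 libraries each, and the 0 h group is called the controls here. No group was sampled untreated at 12 h or 48 h, so treatment and time since handling cannot be told apart. Whether the controls were injected is not recorded, and no dose is given. The labels do not say that replicates came from separate fish, so p-values measure the spread between these libraries, which may be technical. No genotype or strain is given for any group.

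A dividing cell first licenses its replication origins by loading the MCM helicase, then copies its DNA at forks built around the sliding clamp PCNA. Cyclins and the kinases they activate drive each step, the spindle checkpoint delays chromosome separation until all chromosomes are attached, and CDK inhibitors hold cells out of the cycle. In fish the kidney is both a filtering organ and the main site of blood formation, so its dividing cells can include blood precursors and immune cells. Transcripts of many fork and mitotic genes are more abundant in cells in S phase or mitosis, which need not hold for the other members. The share of such cells was not measured here.

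Values are in TPM, transcript abundance scaled by feature length and by library total, so that levels of different genes can be set side by side. Fold changes are on the scale of log2(TPM + 1) and understate the change of genes with low values. Features that reached 1 TPM in 3 or more libraries, 45473 in all, were fitted with limma, and a gene was called changed where it gave a Benjamini-Hochberg adjusted p under 0.05 over all of them. All 165 members passed that filter. Their features were 201 to 12550 nucleotides long (median 2251), and a member had a median of 531 estimated reads per library. In 27 members the lowest library held under 100 estimated reads.

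Names are the best match of an assembled transcript cluster to a protein database, spelled as in the table, and a name can therefore stand for a paralogue. Upper and lower case versions of 1 name are different features, as with Fzr1 and FZR1, and 26 members differ from another member only in letter case. For 144 members the protein match was to Takifugu rubripes, a close relative. The descriptions of 151 members are of cell cycle or replication proteins. The other 14 are described as another protein, among them RUFY2, RUFY3, tmem82 and gag-pol, and entered through their pathway term.

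The libraries were of similar depth, at 25500000 to 32900000 reads as estimated from the steps between low values. Control libraries 1 and 2 lay closer together than any other pair: their correlation over features with means of 10 TPM or more was 0.985. The squared deviation of each feature between 2 libraries was divided by the variance expected from counting alone. The median of that ratio was 1.81 in this pair, against 8.74 or more in every other pair. It is not a multiple of the median expected from counting. That value does not show that they came from separate fish. Both were kept, and averaging them was 1 of the alternatives. With the average, 0 members and 0.0645% of all features were called higher at 12 h against 0 h. Control library 3 stood apart from them, with correlations of 0.857 and 0.864, and correlated at 0.919 to 0.927 with the 48 h libraries. The kidney markers LRP2 and NPHS1 were present in every library. LRP2, an uptake receptor of the proximal tubule, was at 58.9, 51.2 and 19.2 TPM in the controls, 9.32, 7.37 and 9.95 TPM at 12 h, and 18.3, 44.6 and 20.3 TPM at 48 h. NPHS1, a podocyte protein, was at 23.6, 19.6 and 15.8 TPM in the controls, 4.79, 8.62 and 7.81 TPM at 12 h, and 24.4, 33.4 and 16 TPM at 48 h. Both were lowest at 12 h, and the tubule markers slc34a1 and gatm were listed at 0 in 6 and 7 libraries.

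The plot of gene groups by library shows how far the 3 control libraries differed for the genes described here. The 151 members described as cell cycle or replication proteins took 0.299% and 0.291% of the TPM total in control libraries 1 and 2 and 0.411% in control library 3. They took 0.38%, 0.3% and 0.347% in 12 h libraries 1, 2 and 3, and 0.448%, 0.444% and 0.456% in the 48 h libraries. Control library 3 thus lay between the other controls and the 48 h libraries. Of the 165 members, 138 (83.6%) were higher in control library 3 than in both other controls, against 43.6% of all features tested. At 12 h, 98 members (59.4%) were highest in library 1 and lowest in library 2, against 24% of all features.

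**Figure D1:**
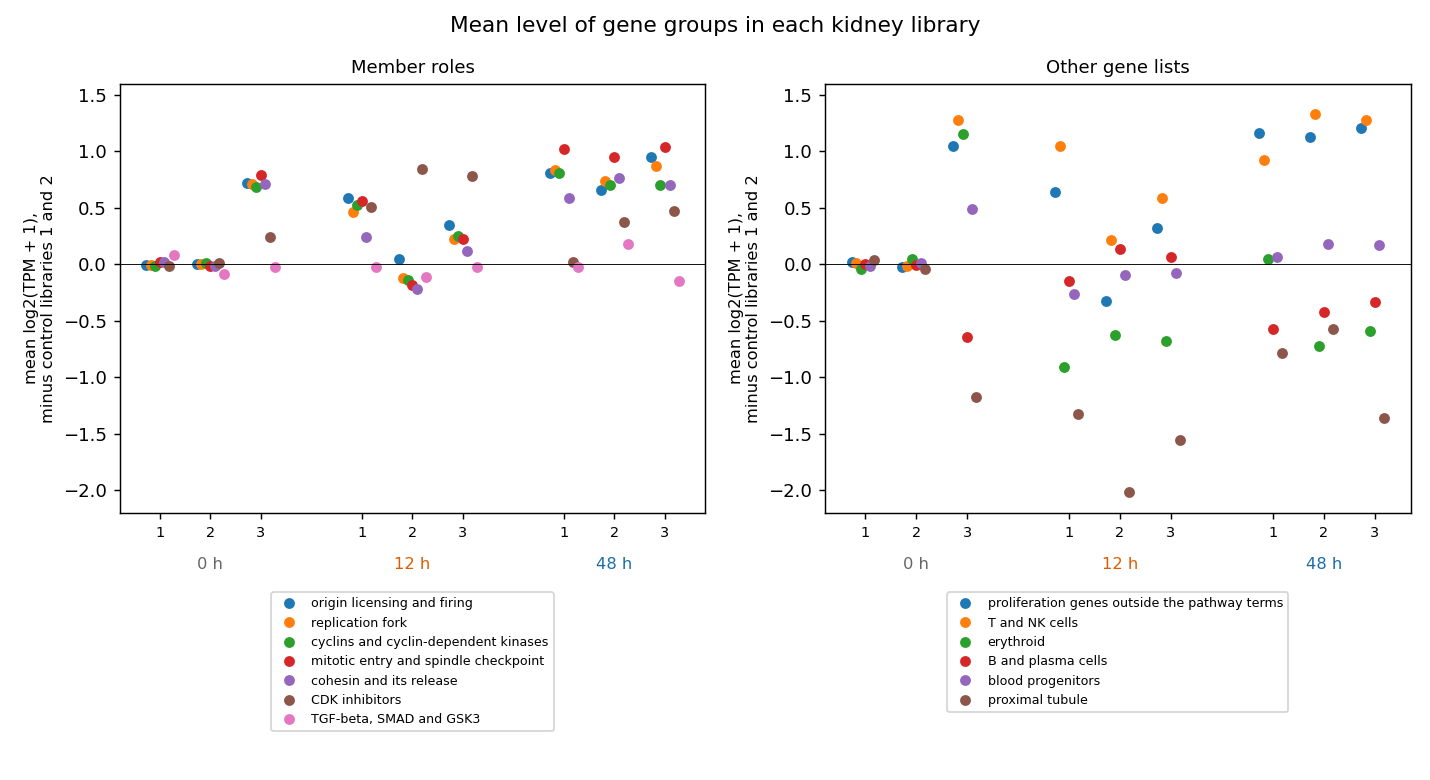
Mean log2(TPM + 1) of each gene group in each library, minus the mean of control libraries 1 and 2, with 1 point per library and a colour per group. Left, roles among the members; right, gene lists outside the pathway terms. Replication, cyclin and mitotic genes sit higher in control library 3 than in the other controls, are uneven among the 12 h libraries, and lie close together at 48 h.

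Some markers of T cells were high and low in the same libraries. In these kidney samples, more cells of a type and more RNA per cell cannot be told apart. Of 21 T and NK cell markers 9 were matched, and their summed level was 99 to 497 TPM in the controls, 167 to 279 TPM at 12 h and 275 to 344 TPM at 48 h. CD3E, part of the T cell receptor complex, was at 20.8, 19.2 and 147 TPM in the controls, 58.2, 15.5 and 33.4 TPM at 12 h, and 68.4, 76 and 70.1 TPM at 48 h, and so shared with pcna its high value in control library 3 and its low value in 12 h library 2. Other genes of the list had another order: from 12 h to 48 h, 3 of the 9 had negative values, of which ccr7, a chemokine receptor, was called lower, and gata3 and ccr7 lay below all controls at 48 h. gzma was listed at 0 in 4 libraries. The 11 matched blood progenitor markers of 12 summed to 355 to 483 TPM in the controls, 302 to 391 TPM at 12 h and 380 to 479 TPM at 48 h, with none at 0. Their sum was high in control library 3, but at 12 h it was lowest in library 1 and highest in library 2, the reverse of most members. In mean log2(TPM + 1), the scale of the plot, 12 h library 1 was also lowest, at 4.21. On that scale library 3 was highest, at 4.39, with library 2 at 4.37. The part of these cell types in the levels of the cell cycle genes was not tested.

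The spread of the members among libraries of 1 group also differed between times. The median standard deviation of a member among 3 libraries, in log2(TPM + 1), was 0.31 at 0 h, 0.26 at 12 h and 0.15 at 48 h. Over all features tested it was 0.39, 0.37 and 0.36. Members were longer, with a median of 2251 nucleotides against 464 over all features in the table. The spreads were not compared at like length or read depth. For the 29 replication fork genes it was 0.42 at 0 h and 0.13 at 48 h, and for the 13 genes of mitotic entry and the spindle checkpoint 0.53 and 0.14.

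At 12 h CDKN1A, a brake on the cell cycle, was higher in every library than in any control. The 12 h and control values overlapped in 16 of 16 genes of origin licensing and firing, 28 of 29 fork genes and 11 of 13 genes of mitotic entry and the spindle checkpoint. Most of all features overlapped as well, with 8.25% wholly above the controls at 12 h and 12.7% wholly below. Among the 12 h libraries, library 1 was highest and library 2 lowest in 13, 25 and 12 genes of these roles (81.2%, 86.2% and 92.3%), against 24% of all features. At 12 h against 0 h, 1 of the 165 members (0.606%) was called higher and 0 lower. Over all features the percentages called were 0.592% higher and 0.831% lower. At an unadjusted p under 0.05 there were 7 members higher and 5 lower, where the percentages over all features were 6.16% and 9.74%. The median log2 fold change of the members was 0.01, beside -0.07 over all features, and 84 members had a positive value, against 44.2% of all features. In 11 members every 12 h library lay above every control and in 11 every 12 h library lay below, 6.67% each, against 8.25% and 12.7% of all features.

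Every 48 h library was above every control in 15 of 29 fork genes (51.7%), against 12.3% of all features. The same held in 8 of 13 genes of mitotic entry and the spindle checkpoint (61.5%). Against control libraries 1 and 2 alone the counts were 29 of 29 and 13 of 13. Control library 3 was at or above the lowest 48 h library in 14 of the fork genes and 5 of the mitotic genes. Over the 45473 features tested it was within the 48 h range in 23773 and above that range in 9083. At 48 h against 0 h limma called 0 of 165 members in either direction, and over all features 0.0088% were called higher and 0.0022% lower. At an unadjusted p under 0.05, 55 members were higher and 0 lower, against 8% and 3.08% of all features. The log2 fold change was positive in 147 members (89.1%), against 61.3% of all features, and its median was 0.41 against 0.13. In 61 members (37%) every 48 h library lay above every control library, against 12.3% of all features, and in 0 members every one lay below, against 3.95%. Without control library 3 the fit still called 0 members, where 0.105% of all features were called higher and 0.0691% lower. All 48 h libraries lay above control libraries 1 and 2 in 125 members (75.8%), against 28.6% of all features. That count leaves out control library 3, whose high values in most members had been seen, so it is no separate support.

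At 48 h against 12 h, 3 members were called higher (POLD4, PRKDC and WEE1) and 1 lower (CDKN1A). These were 1.82% and 0.606% of the members, beside 1.07% and 0.611% of all features, so the shares called were close. In 19 of 29 fork genes and 11 of 13 mitotic entry and checkpoint genes every 48 h library was above every 12 h library. At an unadjusted p under 0.05, 61 members were higher and 6 lower, against 15.6% and 5.9%. The median was 0.39 against 0.21 over all features, and 137 members (83%) had a positive value against 65.2%. In 78 members (47.3%) every 48 h library lay above every 12 h library, against 20.5% of all features, and in 6 (3.64%) every one lay below, against 7.61%. The called number moved when any 1 library was left out. Without control library 3, which touches this comparison through the shared estimate of spread and the features tested, 23 members (13.9%) were called higher and 2 (1.21%) lower, against 3.8% and 1.76% of the 44854 features then tested. The number fell to 0 higher without 12 h library 2, without 12 h library 3 or without any of the 48 h libraries. In those fits 0.0402% to 0.408% of all features were called higher. It fell to 1 (0.606%) without control library 1 or 2, against 0.536% and 0.495% of all features. Without 12 h library 1 it was 5 (3.03%), against 1.82%. The 2 later comparisons share libraries with the first, so their values are given side by side and not as separate support.

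**Figure D2:**
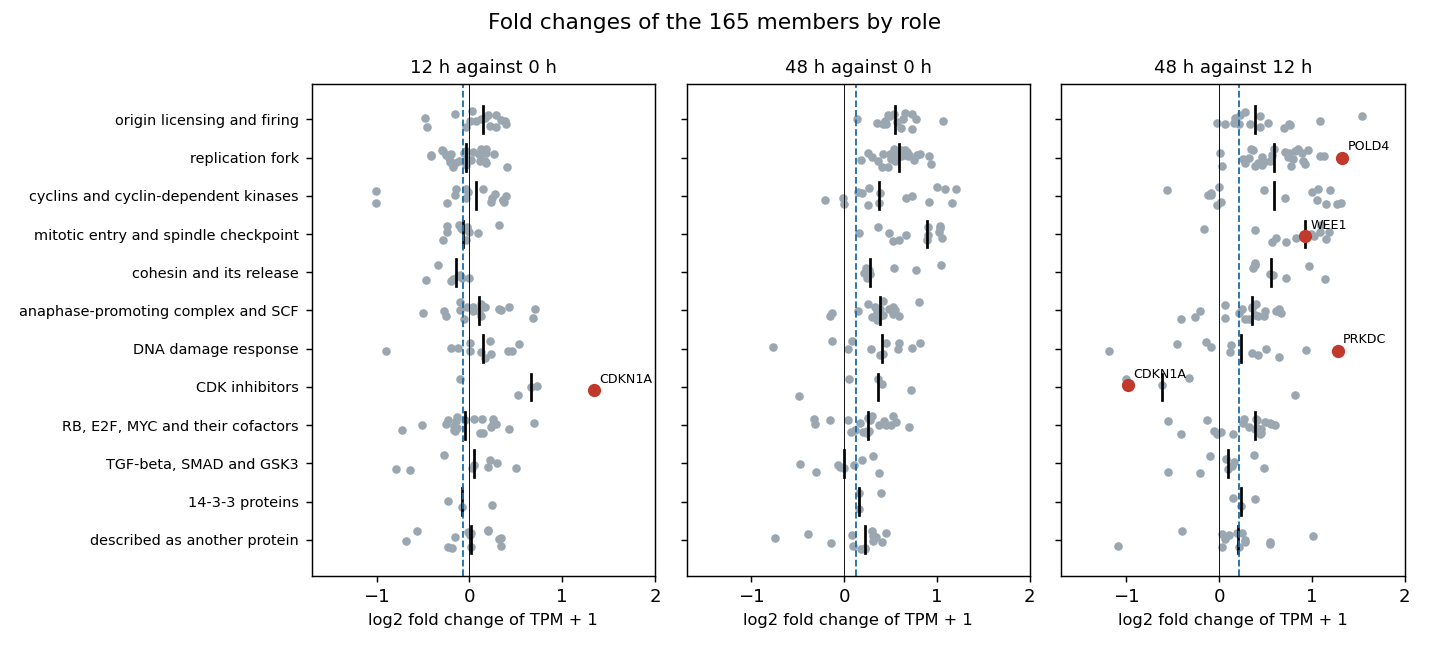
Log2 fold change of each member in the 3 comparisons, by role. Each grey point is a member, red points with names are called genes, black bars are role medians and the dashed blue line is the median of all features tested. The mitotic genes lie furthest right of the dashed line in the comparisons with 48 h, and CDKN1A is called in opposite directions at 12 h and from 12 h to 48 h.

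The called member at 12 h was CDKN1A, the p21 inhibitor that binds cyclin and CDK pairs and PCNA. Its level was 13.1, 12.1 and 12.2 TPM in the controls, 24.8, 42.6 and 34.6 TPM at 12 h, and 15.5, 17 and 16.5 TPM at 48 h. All 12 h libraries were above all others, and the 48 h libraries lay just above the controls without overlap. From 0 h to 12 h the mean rose from 12.5 ± 0.55 to 34 ± 8.9 TPM (SD, n = 3 each), a log2 fold change of 1.34 (standard error 0.19, adjusted p = 0.0177). From 12 h to 48 h it fell by 0.98 on the log2 scale (adjusted p = 0.0391). The first call was lost without control library 1 or 2 or 12 h library 2 or 3, and over 19 alternatives its adjusted p ran from 0.0098 to 0.302. The second held in 7 of 19 alternatives, with adjusted p from 0.0173 to 0.206, and was lost when any library other than control library 3 or 12 h library 1 was left out. The feature is 1998 nucleotides long and is described as cyclin-dependent kinase inhibitor 1-like.

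The other CDK inhibitors were not called. CDKN1B, the p27 inhibitor of cyclin E and CDK2, was at 14.8, 13 and 16.4 TPM in the controls, 16.1, 32.8 and 25.4 TPM at 12 h, and 14, 17.7 and 14.2 TPM at 48 h. It was high in 12 h libraries 2 and 3, while 12 h library 1 overlapped the controls. A further feature with the CDKN1B name, 2837 nucleotides long, had lower values in every 12 h library than in any control, at 16.7, 16 and 16.5 TPM in the controls and 8.72, 10.4 and 9.28 TPM at 12 h, so the name covers features with unlike patterns. CDKN1C, the p57 inhibitor, was at 51.1, 48.8 and 28.6 TPM in the controls, 49.1, 72.2 and 60.6 TPM at 12 h, and 24.1, 32.3 and 32.6 TPM at 48 h. Its 48 h libraries overlapped control library 3 and lay below all 12 h libraries (log2 fold change -1.004, adjusted p = 0.0678). CDKN2B, an inhibitor of CDK4 and CDK6, was at 5.11, 5.29 and 9.8 TPM in the controls, 10.2, 12.7 and 11.4 TPM at 12 h, and 4.61, 8.83 and 16.7 TPM at 48 h, so that its 48 h libraries spread over the whole range. Cdkn2d, of the same family, was at 2.7, 3.9 and 7.58 TPM in the controls, 5.41, 2.43 and 4.68 TPM at 12 h, and 7.52, 8.09 and 7.92 TPM at 48 h and was lowest in 12 h library 2. Of the 5 inhibitors, 4 were highest in 12 h library 2 among the 12 h libraries, the library in which most cyclin and replication genes were lowest. A feature with no name, and so not a member, is described as cyclin-dependent kinase 4 inhibitor C and had another order. It was at 2.46, 2.93 and 11 TPM in the controls and 5.12, 2.55 and 4.06 TPM at 12 h, lowest there in library 2. At 48 h it was at 11.6, 9.6 and 14.6 TPM, and it was not called.

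The 16 genes of origin licensing and firing were not called in any comparison. The MCM2 to MCM7 subunits, which form the replicative helicase, were summed. Their summed level was 133, 135 and 189 TPM in the controls, 219, 148 and 179 TPM at 12 h, and 200.4, 186 and 230.2 TPM at 48 h. The 12 h and 48 h libraries overlapped, and 12 h library 1 was higher than 2 of the 48 h libraries. mcm2 itself was at 28.2, 31.1 and 35.5 TPM in the controls, 47.8, 35.2 and 42.2 TPM at 12 h, and 43.6, 36.2 and 51.6 TPM at 48 h, with log2 fold changes of 0.39 at 12 h and 0.45 at 48 h (adjusted p = 0.33 and 0.43). From 12 h to 48 h its difference was 0.06 (adjusted p = 0.86) and its sign changed when 12 h library 2 or 48 h library 3 was left out. That was the smallest of the 6 subunits, whose values ran to 0.28 for mcm7. MCM3, mcm4-b, mcm5 and Mcm6 lay between them.

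The proteins that load or activate the helicase varied more. Dbf4, which activates the CDC7 kinase that fires origins, was at 4.32, 3.62 and 10.1 TPM in the controls, 5.17, 2.66 and 3.45 TPM at 12 h, and 10.6, 12.5 and 14.6 TPM at 48 h. Each 48 h library was above all of the others, with a log2 fold change of 1.54 against 12 h (adjusted p = 0.0546), the largest among the 165 members in that comparison. CDC45, which joins MCM in the active helicase, was at 10.2, 6.61 and 16 TPM in the controls, 11.2, 3.89 and 8.36 TPM at 12 h, and 15.4, 15.8 and 18.5 TPM at 48 h and lowest in 12 h library 2. CDC6, a loader of MCM, was at 3.99, 3.8 and 13.5 TPM in the controls, 9.99, 6.03 and 9.22 TPM at 12 h, and 13, 8.96 and 10.4 TPM at 48 h, with control library 3 highest. Among the origin recognition subunits, ORC5 had 48 h values of 9.38, 8.34 and 9.24 TPM, above all controls at 4.14, 4.11 and 6.54 TPM and all 12 h libraries at 6.4, 4.05 and 4.59 TPM. ORC4, orc2 and the features named Orc1 and ORC1 overlapped between 12 h and 48 h or between 0 h and 48 h.

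The 29 replication fork genes all had positive values at 48 h against both earlier groups, with medians of 0.58 against 0 h and 0.59 against 12 h, beside 0.13 and 0.21 over all features. In 15 of them every 48 h library was above every control, and in 19 above every 12 h library, where the shares over all features were 12.3% and 20.5%. pcna, the sliding clamp, was at 104, 105 and 217 TPM in the controls, 172, 74.9 and 119 TPM at 12 h, and 238, 199.8 and 212 TPM at 48 h. Control library 3 was within the range of the 48 h libraries, while control libraries 1 and 2 and 12 h library 2 were the lowest of the 9. Its log2 fold change was 0.69 against 0 h (adjusted p = 0.48) and 0.90 against 12 h (adjusted p = 0.17).

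POLD4, the small subunit of DNA polymerase delta, was the called fork gene. It was at 38.6, 35.1 and 56.1 TPM in the controls, 45.1, 20.3 and 33.9 TPM at 12 h, and 71.5, 87.2 and 83.4 TPM at 48 h. The 48 h libraries were above all others. From 12 h to 48 h the mean rose from 33.1 ± 12 to 80.7 ± 8.2 TPM (SD, n = 3 each), a log2 fold change of 1.33 (standard error 0.28, adjusted p = 0.0493). The call held in 5 of 19 alternatives, with adjusted p from 0.0289 to 0.186, and was lost when any library other than control library 3 or 12 h library 1 was left out. The 4 delta subunits together were at 76.4, 74.8 and 125 TPM in the controls, 96.4, 58.6 and 74.8 TPM at 12 h, and 145, 154 and 159 TPM at 48 h, so that the 48 h libraries were above the rest. Pold1, the catalytic subunit, was at 21.5, 15.4 and 14.2 TPM at 12 h and 21.1, 22.5 and 23.1 TPM at 48 h, where 12 h library 1 overlapped the 48 h range.

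The single-strand binding proteins followed the same order of libraries. The 3 RPA subunits summed to 55.6, 53.8 and 105 TPM in the controls, 76, 46.1 and 62.6 TPM at 12 h, and 122, 111 and 114 TPM at 48 h. RPA3 had the largest difference of these, 0.96 on the log2 scale from 12 h to 48 h (adjusted p = 0.0649). A further feature named rpa1, described as the 70 kDa subunit, did not follow: it was at 25.5, 27.5 and 10.7 TPM in the controls, 24.2, 24.7 and 26.9 TPM at 12 h, and 11.1, 13.1 and 16.9 TPM at 48 h. It was low where the member named rpa1, at 13.5, 13.3 and 28.5 TPM in the controls, 21.6, 13.3 and 16.3 TPM at 12 h, and 32.2, 28.9 and 30.1 TPM at 48 h, was high. The features that share the rpa1 name therefore have opposite patterns.

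The clamp loader RFC, with subunits Rfc1, RFC2, Rfc3, RFC4 and RFC5, summed to 72.3, 71 and 108 TPM in the controls, 109, 61.2 and 83.6 TPM at 12 h, and 139, 115 and 124 TPM at 48 h. RFC4 had the largest difference from 12 h to 48 h of the 5, 1.09 on the log2 scale (adjusted p = 0.0938), and Rfc1 the smallest, 0.25. The primase and DNA polymerase alpha, which start each new strand, summed to 42.9, 48.8 and 85.5 TPM in the controls, 69.4, 39.6 and 61.7 TPM at 12 h and 95.7, 79.9 and 97.1 TPM at 48 h. Control library 3 was within the 48 h range for that sum. DNA polymerase epsilon, which copies the leading strand, had summed levels of 57.7 ± 9.1 TPM at 12 h and of 64.9 ± 4.5 TPM at 48 h (SD, n = 3 each), and the groups overlapped.

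Among enzymes that finish the lagging strand, DNA2, a nuclease that trims flaps, was at 1.71, 2.3 and 5.07 TPM in the controls, 2.66, 1.75 and 2.59 TPM at 12 h, and 6.66, 5.38 and 6.73 TPM at 48 h. Each 48 h library was above every other library (log2 fold change 1.13 against 12 h, adjusted p = 0.0935). fen1, a flap endonuclease, was at 19.5, 18.1 and 42.2 TPM in the controls, 26.8, 16.2 and 20.1 TPM at 12 h, and 35.7, 34.8 and 36 TPM at 48 h and was highest in control library 3. lig1, which seals the nicks, was at 20.7, 21 and 35.6 TPM in the controls, 38, 19.7 and 26 TPM at 12 h, and 43.1, 33.4 and 43.5 TPM at 48 h, with 12 h library 1 within the 48 h range. The catalytic epsilon subunit POLE was at 3.2, 2.57 and 3.14 TPM at 12 h and 5.88, 5.64 and 6.14 TPM at 48 h, and pola1 at 18.6, 8.23 and 13.8 TPM at 12 h and 20.8, 19.6 and 25.2 TPM at 48 h. The controls were uneven in both, at 3.78 ± 1.65 TPM for POLE and 16.1 ± 9.2 TPM for pola1 (SD, n = 3 each). Control library 3 was the highest control in each.

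**Figure D3:**
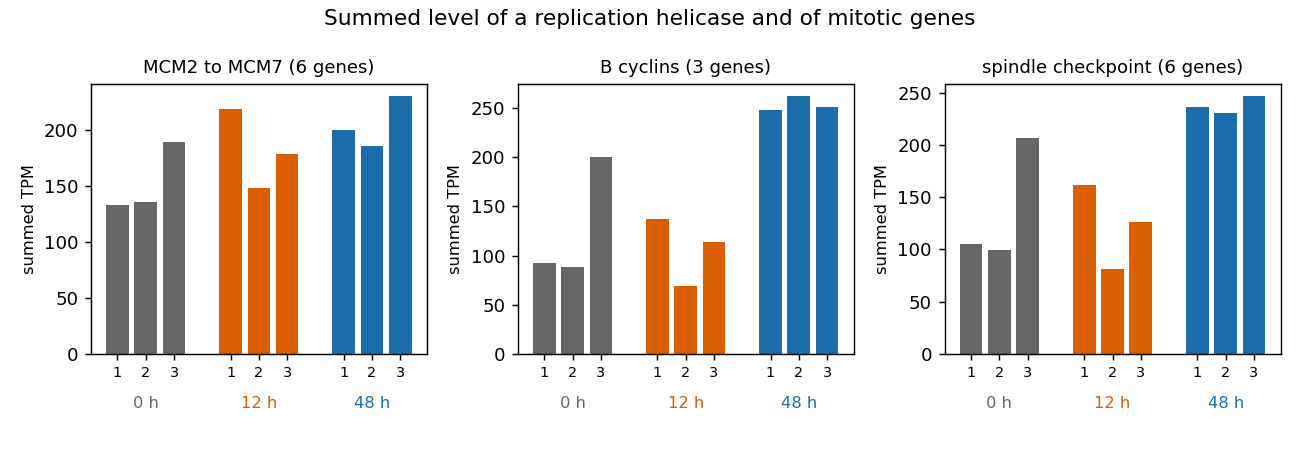
Summed TPM of the MCM2 to MCM7 helicase subunits, of 3 B cyclins and of 6 spindle checkpoint genes in each library, with 1 bar per library and axes from 0. MCM sums at 12 h and 48 h overlap, whereas each mitotic sum is at least 231 TPM at 48 h and at most 162 TPM at 12 h.

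The mitotic cyclins and their kinase were uneven at 0 h and 12 h and even at 48 h. ccnb1, the cyclin B1 partner of CDK1, was at 73.7, 70.6 and 154 TPM in the controls, 103, 53.7 and 88.4 TPM at 12 h, and 193, 210.3 and 190.5 TPM at 48 h. All 48 h libraries were above all others, with a log2 fold change of 1.32 against 12 h and 1.08 against 0 h (adjusted p = 0.0656 and 0.41). cdk1, the kinase that drives entry into mitosis, was at 47.1, 45.9 and 112 TPM in the controls, 86, 34 and 59.8 TPM at 12 h, and 122, 117 and 116 TPM at 48 h. Control library 3 lay just below the 48 h libraries and well above the other controls. CCNA2, the cyclin of S and G2 phases, was at 10, 10.7 and 23.3 TPM in the controls, 23.9, 8.45 and 17.1 TPM at 12 h, and 33.6, 30.8 and 33.8 TPM at 48 h. It had the largest fold change of the 165 members at 48 h against 0 h, 1.20 on the log2 scale (adjusted p = 0.41). The sum of ccnb1, ccnb2 and CCNB3 was 127 ± 63.6 TPM at 0 h, 107 ± 34.9 TPM at 12 h and 254 ± 7.4 TPM at 48 h (SD, n = 3 each).

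The cyclins and kinases that act in G1 and at entry to S phase were called in no comparison. CCND2, a D cyclin, was at 36.9, 35 and 41 TPM in the controls, 35.4, 38 and 38.4 TPM at 12 h, and 33, 39.9 and 39.3 TPM at 48 h, and the 3 groups overlapped. ccnd1 was at 13.5, 12.5 and 18.5 TPM in the controls, 23.4, 17.1 and 18.7 TPM at 12 h, and 21.7, 18.3 and 17.8 TPM at 48 h, lowest in control libraries 1 and 2. The feature Ccnd1, described as cyclin D3-like, was at 2.9 TPM or less in every library, with all 12 h libraries below all others and 2 of them listed at 0. The D cyclin partners cdk4 and Cdk6 differed from 12 h to 48 h by -0.09 and -0.09 on the log2 scale, neither called, and the sign of each changed when 1 library was left out. The E cyclin members ccne1 and Ccne2, which act with CDK2 at entry to S phase, had opposite signs from 12 h to 48 h, and neither was called. ccne1 was at 3.91, 5.29 and 2.47 TPM at 48 h against 5.79, 4.24 and 8.74 TPM at 12 h, and Ccne2 at 7.7, 5.12 and 7.12 TPM against 5.35, 2.56 and 3.41 TPM. A further feature named ccne1, 579 nucleotides long, had a higher mean at 48 h than at 12 h, unlike the ccne1 member. It was at 3.36, 3.83 and 6 TPM at 48 h against 4.06, 2.95 and 4.22 TPM at 12 h, and the groups overlapped. cdk2 was at 8.31, 7.97 and 14.4 TPM in the controls, 16.4, 7.87 and 12.9 TPM at 12 h, and 16.8, 16.4 and 18 TPM at 48 h. ccna1, described as cyclin A1-like, was low at 12 h, at 1.81, 1 and 0.98 TPM, against 3.09, 3.33 and 4.04 TPM in the controls and 4.03, 3.59 and 2.82 TPM at 48 h. Its 12 h libraries lay below all others (log2 fold change -1.001 at 12 h, adjusted p = 0.11), without a call.

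The 13 genes of mitotic entry and the spindle checkpoint had a median log2 fold change of 0.89 at 48 h against 0 h and 0.93 against 12 h, beside 0.13 and 0.21 over all features. In 11 of the 13 every 48 h library was above every 12 h library, against 20.5% of all features. WEE1, the kinase that holds CDK1 inactive before mitosis, was the called one. It was at 9.3, 10 and 10.7 TPM in the controls, 11.8, 8.43 and 9.42 TPM at 12 h, and 21.9, 16.1 and 21.1 TPM at 48 h. Here control library 3 lay with the other controls, and all 48 h libraries were above all others. From 12 h to 48 h the mean rose from 9.88 ± 1.7 to 19.7 ± 3.1 TPM (SD, n = 3 each), a log2 fold change of 0.93 (standard error 0.18, adjusted p = 0.0394). Against 0 h it was 0.90 (adjusted p = 0.4). The call held in 6 of 19 alternatives, with adjusted p from 0.022 to 0.208, and was lost when any library other than control library 3 or 12 h library 1 was left out. A further WEE1-like kinase, wee2, was at 3.45, 3.55 and 6.57 TPM in the controls, 5.19, 3.31 and 3.76 TPM at 12 h, and 7.13, 5.88 and 7.19 TPM at 48 h.

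MAD2L1, which inhibits the anaphase-promoting complex, was at 45.5, 41.8 and 90.8 TPM in the controls, 66.1, 27.6 and 51.5 TPM at 12 h, and 102, 101 and 110.2 TPM at 48 h. Its 48 h libraries were above all others, control library 3 came next and 12 h library 2 was lowest. The log2 fold change from 12 h to 48 h was 1.18 (adjusted p = 0.1). For the kinases BUB1 and ttk it was 1.10 and 1.15, and for Bub1b, a checkpoint protein, 0.99 (adjusted p = 0.12, 0.12 and 0.15). plk1, a kinase of mitotic entry, was at 10.8, 9.43 and 27.4 TPM in the controls, 23.2, 8.25 and 14.3 TPM at 12 h, and 28.4, 31.4 and 29.5 TPM at 48 h, and cdc25-1-b, described as the CDK1-activating M-phase inducer phosphatase 2, at 6.32, 6.87 and 13.2 TPM in the controls, 11.7, 5.04 and 9.01 TPM at 12 h, and 18.9, 15.9 and 21 TPM at 48 h. The mean level of the 13 genes minus that of MCM2 to MCM7, in log2(TPM + 1), was -1.09, -1.14 and -0.81 in the controls, -1.23, -1.45 and -1.29 at 12 h, and -0.67, -0.64 and -0.82 at 48 h. All 12 h libraries were thus below all others in that difference, which was not tested.

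**Figure D4:**
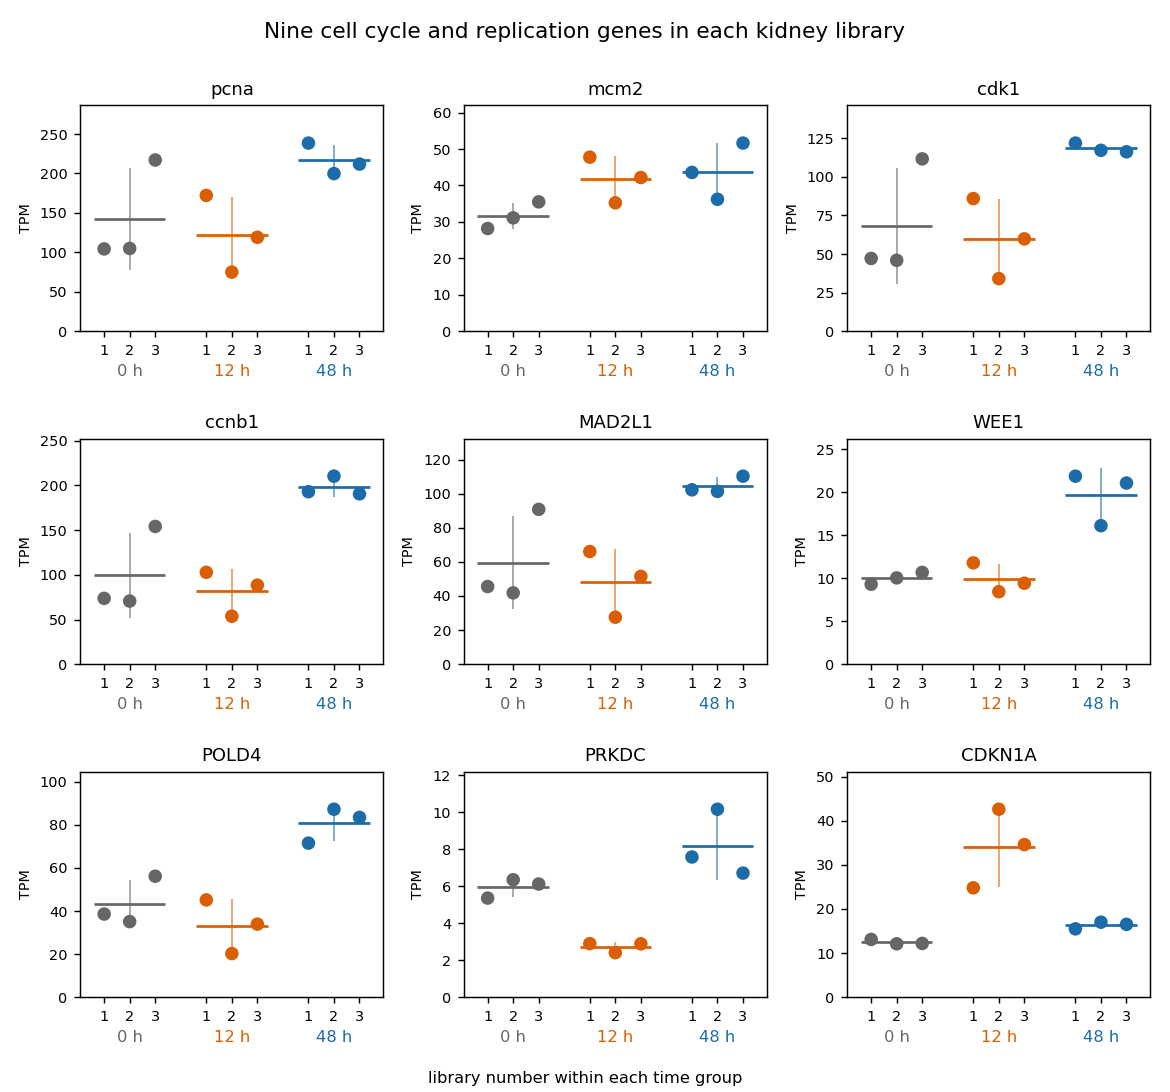
TPM of 9 members in each library, with 1 point per library, horizontal lines at group means and vertical lines of 1 standard deviation (n = 3). Axes start at 0 and differ between panels. WEE1, POLD4, ccnb1 and MAD2L1 are higher in all 48 h libraries than in any other, PRKDC is low in all 12 h libraries and CDKN1A is high in them.

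Cohesin, the ring that holds sister chromatids together, and the proteins that release it had 8 members. RAD21, a ring subunit, was at 87, 77.7 and 116 TPM in the controls, 78.2, 55.6 and 67.2 TPM at 12 h, and 99.7, 131 and 101 TPM at 48 h, with a log2 fold change of 0.72 from 12 h to 48 h (adjusted p = 0.09). The smc1a and smc3 subunits differed by 0.36 and 0.55. PTTG1, the securin that keeps separase inactive, was at 20.7, 23.6 and 50.7 TPM in the controls, 43.6, 17.3 and 26.6 TPM at 12 h, and 62.4, 58.7 and 63.4 TPM at 48 h, and the separase Espl1 at 2.26, 2.11 and 5.82 TPM in the controls, 3.36, 1.78 and 2.76 TPM at 12 h, and 5.59, 6.23 and 6.23 TPM at 48 h. For PTTG1 the 48 h libraries were above all others, while for Espl1 control library 3 was within their range.

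The 19 members of the anaphase-promoting complex and of SCF, the ubiquitin ligases that remove cyclins and inhibitors, were not called. At 48 h against 0 h, 17 had positive values, with a median of 0.38 beside 0.13 over all features. In 11 (57.9%) every 48 h library was above every control, against 12.3% of all features. Of the genes that follow, RBX1 and CDC27 had that order, while Cdc20 and the feature named cdc20 did not. Cdc20, the activator of the complex in mitosis, was at 49.9, 47.3 and 43.4 TPM in the controls, 72.4, 76.1 and 82.9 TPM at 12 h, and 43.5, 84.5 and 52 TPM at 48 h. The 12 h libraries were above the controls, and 48 h library 2 was the highest of all (log2 fold change at 12 h 0.71, adjusted p = 0.16). RBX1, a RING subunit of SCF, was at 14.1, 17.3 and 21.8 TPM in the controls, 30.3, 25.4 and 30.8 TPM at 12 h, and 23.9, 23.2 and 27.7 TPM at 48 h, with a log2 fold change of 0.69 at 12 h (adjusted p = 0.1) that was called where control library 3 was left out (adjusted p = 0.0428). CDC27, a scaffold subunit of the complex, was at 24, 27.4 and 37.5 TPM in the controls and 36.1, 39.9 and 36 TPM at 12 h. At 48 h it was at 39.6, 39.8 and 38 TPM, with control library 3 just below. The feature named cdc20 in lower case is 201 nucleotides long and was listed at 0 in 3 libraries.

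Of the 12 members of the DNA damage response 1 was called, higher at 48 h against 12 h, where 1.07% of all features were called higher. PRKDC, the catalytic subunit of the DNA-dependent protein kinase that joins broken ends, was at 5.36, 6.35 and 6.12 TPM in the controls, 2.9, 2.41 and 2.89 TPM at 12 h, and 7.58, 10.2 and 6.71 TPM at 48 h. The 12 h libraries were below the controls, which were below the 48 h libraries, with no overlap. From 12 h to 48 h the mean rose from 2.73 ± 0.28 to 8.15 ± 1.8 TPM (SD, n = 3 each), a log2 fold change of 1.28 (standard error 0.21, adjusted p = 0.0228). At 12 h against 0 h it was -0.90 (adjusted p = 0.0721), called lower where the filter was raised to 5 TPM (adjusted p = 0.0465). The later call held in 12 of 19 alternatives, with adjusted p from 0.0151 to 0.155, and was lost when 12 h library 2, 12 h library 3 or any 48 h library was left out. PRKDC differed from most members in that control library 3 did not stand above the other controls.

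Among genes of the DNA damage response, mdm2, a ubiquitin ligase, was at 10.4, 8.82 and 13.1 TPM in the controls, 10.5, 12.9 and 14.8 TPM at 12 h, and 14.2, 17.7 and 24.1 TPM at 48 h. Gadd45g, a growth arrest gene, was at 105, 111 and 40.9 TPM in the controls, 58.2, 180.2 and 109.7 TPM at 12 h, and 46.1, 42.3 and 48.9 TPM at 48 h, low in control library 3 and at 48 h and highest in 12 h library 2 (log2 fold change from 12 h to 48 h -1.18, adjusted p = 0.16). GADD45A, of the same family, was at 24.1, 21.3 and 18.7 TPM in the controls, 18.7, 44.9 and 35.9 TPM at 12 h, and 24.2, 21.9 and 21.8 TPM at 48 h, and GADD45B was at 5.4 TPM or less in every library. The checkpoint kinases CHEK1 and CHEK2 differed by 0.93 and 0.35 from 12 h to 48 h, and the sensor kinases ATM and ATR by 0.41 and 0.12, none of them called.

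The 21 members around RB, E2F and MYC, which set the transcription of S phase genes, had medians of 0.26 at 48 h against 0 h and 0.38 against 12 h, beside 0.13 and 0.21 over all features, and none was called. RB1 was at 9.14, 7.77 and 9.59 TPM in the controls, 10.1, 9.08 and 10.4 TPM at 12 h, and 9.3, 9.97 and 10.8 TPM at 48 h, and the groups overlapped. Its relative Rbl1 differed by 0.60 from 12 h to 48 h, and the features Rbl2 and RBL2 by -0.55 and 0.26. E2F1, E2f2, E2f3, E2F3, e2f4, E2f5 and E2F5 had values from 0.27 for E2f2 to 0.56 for E2F3. E2F3 was at 6.97, 2.73 and 2.51 TPM at 48 h against 3.15, 2.24 and 1.41 TPM at 12 h, with only 48 h library 1 above the 12 h range. E2f5 and E2F5 had medians of 3.7 and 12 estimated reads per library, too few to read their values closely. myc, a driver of growth genes, was at 15.3, 18.1 and 24.4 TPM in the controls, 38.7, 24.7 and 31.9 TPM at 12 h, and 26.2, 25.6 and 34 TPM at 48 h. All 12 h libraries were above all controls, with a log2 fold change of 0.70 (adjusted p = 0.16). A further feature named myc had the same order, at 12.7, 14.9 and 16.2 TPM in the controls and 28.1, 21.5 and 23.5 TPM at 12 h. HDAC2, a deacetylase recruited by RB, had a log2 fold change of 0.43 at 12 h (adjusted p = 0.23).

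The TGF-beta pathway holds many cell types in G1. Its members and the kinase GSK3B, 9 in all, had a median log2 fold change of 0.0018 at 48 h against 0 h. Against 12 h it was 0.09, and both were below the median of all features. tgfb1 was at 55.4, 52.5 and 66.8 TPM in the controls, 56.8, 39.5 and 48.6 TPM at 12 h, and 57.6, 65.5 and 64.7 TPM at 48 h. Tgfb2 was at 14.4, 13.5 and 10.7 TPM in the controls, 17.4, 19.1 and 19.1 TPM at 12 h, and 25, 12 and 6.05 TPM at 48 h. Its 48 h libraries spread over the whole range. The member TGFB2, described as TGF-beta-2-like, was lower in every 12 h library than in any control, unlike Tgfb2. It was at 5.95, 5.33 and 4.9 TPM in the controls, 2.86, 3.32 and 3.09 TPM at 12 h, and 1.69, 5.21 and 4.75 TPM at 48 h. Among the 3 proteins of the 14-3-3 family, which hold phosphorylated CDC25 in the cytoplasm, none was called. The member ywhaba, described as 14-3-3 theta, was at 239, 225 and 216 TPM at 48 h and 170.3, 153 and 196 TPM in the controls. Further features named ywhaba overlapped between these groups. They were at 187, 254 and 209 TPM at 48 h against 190, 169 and 182 TPM, and at 135, 144 and 121 TPM against 99.4, 91.5 and 131 TPM. The 14 members described as another protein had medians of 0.23 and 0.21 at 48 h against 0 h and 12 h, and 0 were called. Of these, ZBED5 was at 11.4, 15.2 and 6.03 TPM in the controls, 8.81, 17.8 and 14.6 TPM at 12 h, and 4.25, 6.08 and 7.01 TPM at 48 h, lowest at 48 h and in control library 3.

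Genes of proliferation that carry neither pathway term were read from a list of 64 symbols, of which 58 were matched. It holds MKI67, a marker of cycling cells, TOP2A, a topoisomerase of chromosome condensation, and rrm2 and TK1, which supply DNA precursors. At 48 h against 12 h limma called 0 of the 58, with 45 higher and 0 lower at an unadjusted p under 0.05, where 15.6% and 5.9% of all features were. The median was 1.08, against 0.21 over all features, and in 51 every 48 h library was above every 12 h library, against 20.5%. MKI67 was at 18.1, 18.2 and 53.2 TPM in the controls, 29, 11.1 and 20.5 TPM at 12 h, and 48.5, 50.4 and 58.8 TPM at 48 h, with control library 3 within the 48 h range. TK1 was at 18.7, 19.9 and 67.2 TPM in the controls, 24, 9.94 and 17.2 TPM at 12 h, and 46.7, 49.1 and 48.8 TPM at 48 h and was highest in control library 3. At 48 h against 0 h all 58 had positive values, with a median of 0.86, where 61.3% of all features were positive and their median was 0.13. In 25 of the 58 (43.1%) every 48 h library was above every control, against 12.3% of all features. Control library 3 was above both other controls in 57 (98.3%), against 43.6% of all features. Of the 58, 0 were called and 42 were higher and 0 lower at an unadjusted p under 0.05, against 8% and 3.08% of all features.

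Other lists also differed between control libraries. The 9 matched erythroid markers of 23 summed to 1724 to 6833 TPM at 0 h, 1079 to 1414 TPM at 12 h and 601 to 1461 TPM at 48 h, with control library 3 highest. The 20 matched proximal tubule markers of 22 summed to 645 to 1450 TPM in the controls, 414 to 657 TPM at 12 h and 593 to 1062 TPM at 48 h. The 8 matched B and plasma cell markers of 17 summed to 331 to 524 TPM at 0 h, 464 to 548 TPM at 12 h and 413 to 494 TPM at 48 h, and the 12 matched myeloid markers of 18 to 3631 to 5500 TPM, 4506 to 5537 TPM and 4528 to 6263 TPM. The 11 matched podocyte and glomerulus markers of 14 summed to 219 to 263 TPM, 94.2 to 129 TPM and 156 to 269 TPM. Called genes of these lists were tal1, mrc1, amn, anpep, aqp1 and podxl lower and lgals3 higher at 12 h, and rhag, mrc1, fbp1, nphs1 and podxl higher and ccr7 lower from 12 h to 48 h. The part of these cell types in the results was not tested.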

How the data were processed

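RNA of kidney from 9 libraries in 3 groups was sequenced, and groups were taken from the sample labels. The authors deposited 1 table of values per assembled feature, taken here as TPM: the header names no unit, and the columns total 993873 to 996068. Feature identifiers carry the name of the Trinity assembler. The aligner, the quantification tool and their settings are not given in the sources used here, and no sequences were read. Depth was estimated from the steps between low values of features of 400 to 900 nucleotides, of which 96.6% to 97.9% fell within 0.1 of a whole read.

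Features that reached 1 TPM in 3 or more libraries were fitted on the log2(TPM + 1) scale by limma 3.58.1 (R 4.3.3). All 9 libraries shared 1 estimate of spread, each group had its own coefficient, and eBayes used its trend and robust options. Tests were two-sided with Benjamini-Hochberg adjustment over 45473 features, and the code was tested on simulated data. The members and gene lists were chosen with earlier results of these data known. Named genes are those called, a core set of replication and cell cycle genes whatever their values, and called genes of each list. Others were chosen after their values were seen, among them Dbf4, DNA2, CDKN1C, PTTG1, Espl1, ccna1, RBX1, HDAC2, ZBED5, the polymerase subunits and the features that share a name with a member. Groups share replicate numbers, but deviations from group means correlated at only -0.10 to 0.15 between libraries of 1 number, so no pairing was used. Alternatives were other normalisation, filters, pseudocount and thresholds, leaving out libraries, and summing or averaging. The values of 1 member are not reported here.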

Additional observations from a re-analysis of the deposited data

How the results depend on the processing

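The counts of called members were small and moved with most settings, and the causes were not tested. From 12 h to 48 h the main counts were 3 higher and 1 lower. They were 1 and 1 (0.606% each) with quantile normalization, where 0.581% and 0.787% of all features were called. Without the trend they were 1 and 0, against 0.427% and 0.29%. With a filter of 5 TPM they were 8 and 2 of 146 (5.48% and 1.37%), against 5.4% and 2.49%. With only the compared groups they were 5 and 0 (3.03% and 0%), against 0.884% and 0.563%. With control libraries 1 and 2 averaged they were 1 and 0, against 0.608% and 0.367%. At an adjusted p under 0.01 they were 0 and 0, against 0.0396% and 0.0374%. Averaging control libraries 1 and 2 and leaving out 12 h library 3, an alternative chosen after seeing the data, gave 0 and 0, against 0% and 0%. With the replicate number as a block they were 0 and 0, against 0.367% and 0.259%. Leaving out each library gave 0 to 23 higher and 0 to 3 lower, and over all features calls moved too, to 3.8% higher and 1.76% lower without control library 3. At 12 h against 0 h the count higher was 1, and 1 with the replicate block, where 0.235% of all features were called higher. It was 0 without the trend, with only the compared groups, with the controls averaged (with or without 12 h library 3) and at an adjusted p under 0.01. In those alternatives 0.00684% to 0.22% of all features were called higher. Leaving out each library gave 0 to 2 higher, against 0.0313% to 0.729% of all features. The count lower was 1 (0.685%) with the filter of 5 TPM, against 2.59% of all features, and 0 over the libraries left out. Keeping only the 151 described members, or adding the 16 features with no name, both chosen after seeing the data, left the counts of each comparison unchanged. At 48 h against 0 h every alternative that was run gave 0 called members. Of 46 named log2 fold changes recomputed under up to 20 alternatives, 4 changed sign, all from 12 h to 48 h and none of them called. mcm2 was -0.0251 and ATR -0.0722 with quantile normalization. Over the libraries left out mcm2 ran over -0.059 to 0.191, with -0.0491 without 12 h replicate 2, cdk4 over -0.251 to 0.0948 and Cdk6 over -0.231 to 0.0433. Of 917 recomputed values, 21 gained a call and 59 lost one. Only results called in the main fit could lose a call, and each was recomputed under 20 alternatives. CDKN1A lost its call in 9 of them at 12 h against 0 h and in 13 at 48 h against 12 h. In that later comparison POLD4 lost its call in 15, WEE1 in 14 and PRKDC in 8. The depth limits members under 100 estimated reads more than the rest, and 3 libraries per group limit every call.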

Other observations

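A further 29 fish-matched features held a cell cycle or DNA replication term and had no name in the table, and 13 of them were described as transposons. The 16 others were tested in the same limma fit, and 0 were called in any comparison. Over all features at most 1.07% were called in 1 direction of a comparison, so few calls among 16 features could be looked for. Their lowest adjusted p was 0.112.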
